A study of Homo sapiens with 6 samples.

Results

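The genes of sterol and fatty acid synthesis were examined in PANC-1 cells, a human line established from a pancreatic ductal carcinoma. The set holds 30 genes known as targets or regulators of the sterol regulatory element binding proteins (SREBPs), out of 42902 Gene IDs in the count table. Of these, 21 belong to the sterol branch and 9 to the fatty acid branch. Members were taken by gene name from a list, with no threshold on a measured value, but the list was chosen with earlier results of these data known. All 30 were found in the table and all 30 were abundant enough to be tested. Poly(A) RNA was sequenced in 3 libraries of cells carrying a short hairpin RNA against RRM2 (shRRM2) and in 3 libraries of cells carrying a control hairpin (shNC), which the labels describe as wild type. The labels do not say how many hairpins or clones were used, how long the cells had carried them, or whether replicate libraries stem from separate cultures. Each p-value below is thus about the spread among these 6 libraries, part or all of which may be technical.

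SREBPs are transcription factors held in the endoplasmic reticulum membrane. When sterol is scarce, the escort protein SCAP carries them to the Golgi, where proteases release the active fragment, and INSIG proteins hold SCAP back when sterol is plentiful. SREBP-2, made from SREBF2, acts mainly on the sterol genes, and SREBP-1, made from SREBF1, mainly on the fatty acid genes. Both routes start from cytosolic acetyl-CoA: the mevalonate route leads to isoprenoids and, through squalene and lanosterol, to cholesterol, while acetyl-CoA carboxylase and fatty acid synthase build saturated fatty acids that are then elongated and desaturated.

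Total counts per library ran between 16606947 and 23300433, and levels are given in counts per scaled library total (CPM), and before that scaling a value of 1 rests on 16.6 to 23.3 counts. RRM2, which encodes the small subunit of ribonucleotide reductase and is the gene targeted, had 716, 808 and 716 counts in the shRRM2 libraries, against 3567, 4435 and 3342 counts in the shNC libraries. It stood at 20.2% of the shNC level (log2 fold change −2.31, SE 0.0443, adjusted p = 3.72e-29). The first principal component of the libraries held 64.7% of the variance and separated shRRM2 from shNC, and no library stood apart from its own group on it. By chi-square per degree of freedom over gene counts, shRRM2 replicate 2 differed most from its group, at 3.56 and 3.88 against replicates 1 and 3. The other pairs within a group lay between 2.22 and 2.71, and pairs across the groups between 29.2 and 35.5. Of the epithelial markers, KRT8, KRT18 and KRT7 were abundant, at 1636, 1073 and 674 CPM in shRRM2 and 1081, 787 and 707 CPM in shNC. KRT19 (0.324 and 0.0670 CPM), EPCAM (0.697 and 0.261 CPM) and CDH1 (2.36 and 0.860 CPM) were low in shRRM2 and in shNC. In the edgeR test EPCAM (log2 fold change 1.47, adjusted p = 0.024) and CDH1 (1.43, adjusted p = 0.00028) were still called higher in shRRM2. KRT8 (0.60) and KRT18 (0.45) were also called higher and KRT7 (−0.07) lower, while KRT19 was too scarce to be tested. The summed adipocyte markers lay between 0.221 and 0.396 CPM in shRRM2 and between 0.0607 and 0.304 CPM in shNC, with ADIPOQ and FABP4 at 0 in every library. The summed hepatocyte markers reached 0.201 CPM in shRRM2 and 0.0571 CPM in shNC at most. The fibroblast markers summed to between 1.01 and 1.13 CPM in shRRM2 and between 0.0607 and 0.400 CPM in shNC. Of the immune markers, CD3E was at 0 in every library and PTPRC averaged 0.0872 CPM in shRRM2 and 0 CPM in shNC.

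All 3 libraries of one group differed from all 3 of the other at a large share of genes. Across the 15866 genes tested, 52.1% passed an adjusted p of 0.05 (edgeR's quasi-likelihood test with Benjamini-Hochberg adjustment over all tested genes), 26.0% higher and 26.1% lower in shRRM2. The count for the 30 synthesis genes has to be read against that share: 23 passed, 8 higher and 15 lower, and 7 did not pass. A call whose log2 fold change also reached 0.5 in size was made for 19.1% of all tested genes and for 7 of the 30. The CPM values of the groups did not overlap for 57.8% of all tested genes and for 23 of the 30. The median log2 fold change was −0.091 over the 30 genes and −0.009 over all tested genes. In bulk RNA, a lower level in every cell and fewer cells with the transcript cannot be told apart.

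Of the 9 fatty acid genes, 7 fell in shRRM2, 0 rose and 2 did not pass, with a median log2 fold change of −0.52, and 5 of the 7 fell by at least 0.5. Of the 21 sterol genes, 8 rose, 8 fell and 5 did not pass, with a median of 0.039 and values between −0.40 and 0.99. Among all 15866 tested genes, 26.0% were called higher and 26.1% lower, and 1123 were called lower by at least 0.5. The 8 fatty acid enzymes together summed to 2862, 2818 and 2839 CPM in shRRM2, against 4036, 3981 and 3941 CPM in shNC, or 71.3% of the shNC sum. The 18 enzymes of the sterol route summed to 2188, 2186 and 2129 CPM in shRRM2, against 2238, 2217 and 2209 CPM in shNC, or 97.6% of the shNC sum. At this scaling, both sums were lower in every shRRM2 library than in any shNC library. For the sterol sum that order depends on the scaling factors, which ran from 0.978 (shNC replicate 1) to 1.02 (shRRM2 replicate 3). Without these factors the sterol sums of the groups overlap, so they do not show a fall. The ratio of the fatty acid sum to the sterol sum within a library was 1.31, 1.29 and 1.33 in shRRM2 and 1.80, 1.80 and 1.78 in shNC. A sum is carried mostly by its most abundant transcripts, and FASN and SCD alone gave 1609 ± 30.1 CPM in shRRM2 and 2479 ± 48.7 CPM in shNC (SD, n = 3 each).

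**Figure D1:**
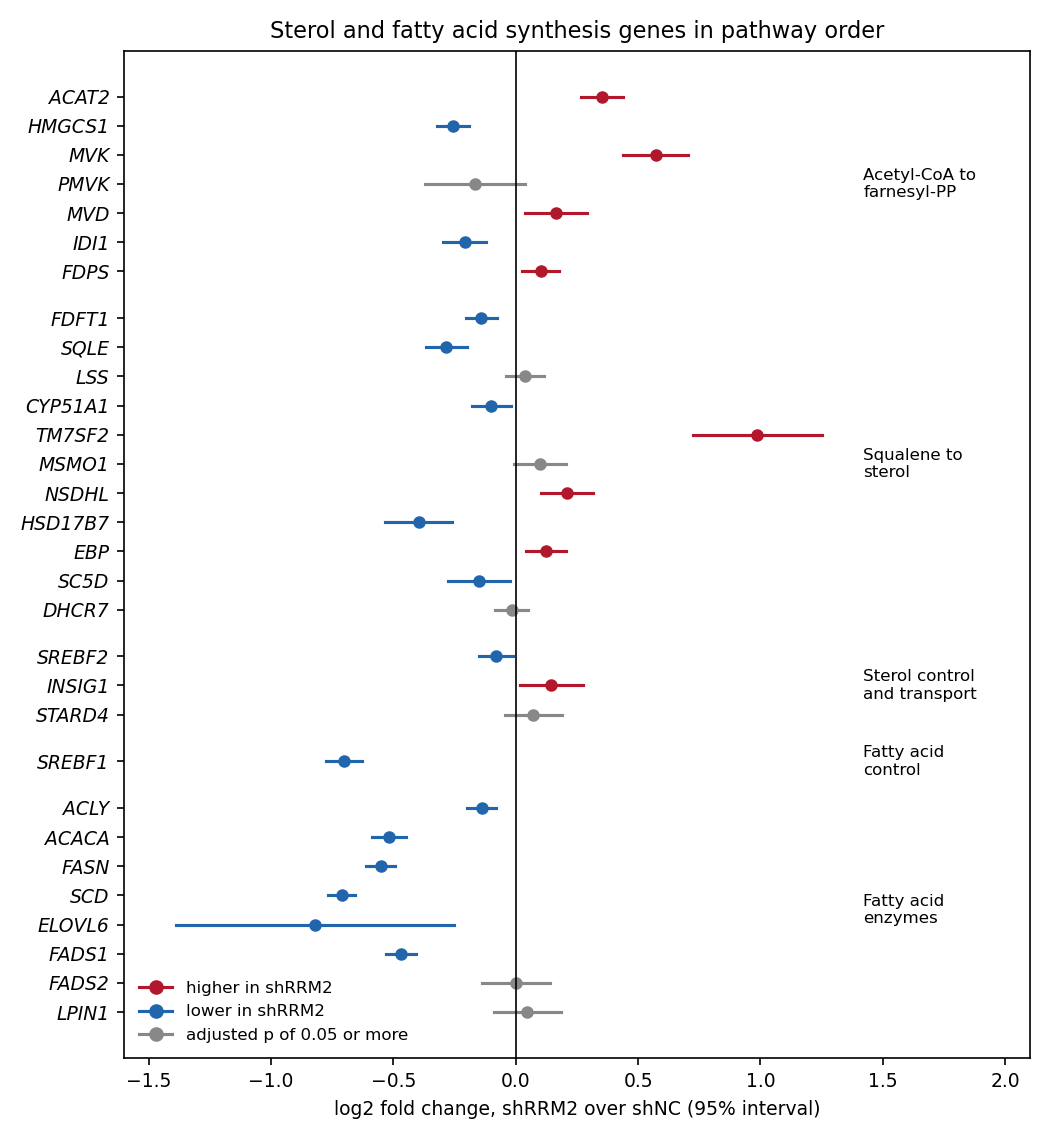
Log2 fold change of shRRM2 over shNC for each of the 30 genes, with 95% intervals from the edgeR fit, grouped by route; red is higher, blue lower and grey an adjusted p of 0.05 or more. The 7 fatty acid genes that fell lie left of 0 and the other 2 near it, between −0.82 and 0.05 in all, while the sterol genes lie on both sides of 0, between −0.40 and 0.99.

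Promoters of both regulators and of an enzyme from each branch are printed to show the short motifs counted over all of them. Each line gives the RefSeq promoter of the GRCh38.p14 assembly from 250 bases before to 50 bases after the annotated start, 5′ to 3′ along the gene's own strand. Capitals mark matches, on either strand and with overlaps allowed, to CCAAT (the CCAAT box, bound by NF-Y), GGGCGG (the GC box, bound by SP1), CACGTG (an E-box) and TCACNCCAC (the core of a sterol regulatory element). SREBF1 lies on the minus strand at chr17:17836937-17837236, SREBF2 on the plus strand at chr22:41832855-41833154, SCD on the plus strand at chr10:100346983-100347282 and MVK on the plus strand at chr12:109573544-109573843. SREBF2 and MVK stand for the sterol branch, SREBF1 and SCD for the fatty acid branch.
SREBF1: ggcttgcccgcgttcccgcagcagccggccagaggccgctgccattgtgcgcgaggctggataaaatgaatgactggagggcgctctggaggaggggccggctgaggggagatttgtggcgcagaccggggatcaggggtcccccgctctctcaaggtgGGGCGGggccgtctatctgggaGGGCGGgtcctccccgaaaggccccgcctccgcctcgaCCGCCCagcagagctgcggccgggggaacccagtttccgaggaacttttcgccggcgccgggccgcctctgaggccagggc
SREBF2: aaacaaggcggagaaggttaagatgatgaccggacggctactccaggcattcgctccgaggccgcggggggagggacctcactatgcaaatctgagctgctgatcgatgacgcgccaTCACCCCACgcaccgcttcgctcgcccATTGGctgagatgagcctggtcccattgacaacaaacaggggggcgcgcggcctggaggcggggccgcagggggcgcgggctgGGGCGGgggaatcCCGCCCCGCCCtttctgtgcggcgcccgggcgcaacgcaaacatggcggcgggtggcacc
SCD: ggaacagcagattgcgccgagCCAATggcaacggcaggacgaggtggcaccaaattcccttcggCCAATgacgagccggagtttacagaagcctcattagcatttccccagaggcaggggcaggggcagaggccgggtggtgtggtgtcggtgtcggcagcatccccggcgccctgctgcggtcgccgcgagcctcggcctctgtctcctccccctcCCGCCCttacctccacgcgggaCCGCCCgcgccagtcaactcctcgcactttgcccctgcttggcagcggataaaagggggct
MVK: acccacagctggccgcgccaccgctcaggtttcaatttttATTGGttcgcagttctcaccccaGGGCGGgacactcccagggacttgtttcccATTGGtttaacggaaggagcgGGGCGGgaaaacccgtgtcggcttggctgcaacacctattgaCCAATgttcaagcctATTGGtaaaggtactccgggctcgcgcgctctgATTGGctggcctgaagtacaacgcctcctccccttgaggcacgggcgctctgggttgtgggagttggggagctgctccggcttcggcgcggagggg

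The SREBF1 window, at the upstream end of the gene, holds GC boxes and no match to the other motifs. A single window was scanned per gene, so any other start site of SREBF1 was not covered. The SREBF2 window holds the sterol element core TCACCCCAC at position −133 relative to the start, then an inverted CCAAT box, and its last pair of inverted GC boxes overlaps by a base. The SCD window holds 2 CCAAT boxes and 2 GC boxes, and the MVK window holds CCAAT boxes in both orientations. Promoters were found in the RefSeq table for 26 of the 30 genes, which leaves out FASN, ACAT2, FDFT1 and SQLE. A CCAAT box was present in 15 of 18 sterol promoters and in 2 of 8 fatty acid promoters, those of SCD and ACLY, against 36.1% of the promoters of tested genes and 35.7% of all 27305 promoters of the same length. A GC box was present in 17 of 18 sterol and 7 of 8 fatty acid promoters, against 68% of the promoters of tested genes. The E-box was found in 3 sterol promoters (INSIG1, SC5D and LSS) and 0 fatty acid promoters, against 10.1% of the promoters of tested genes. The sterol element core was found in the SREBF2 promoter and in 0 of the other 25, against 1.15% of the promoters of tested genes. A match describes letters in a short window and says nothing of whether a factor binds there.

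SREBF1, which encodes the SREBP-1 isoforms, fell in shRRM2. It stood at 203, 198 and 199.5 CPM in the shRRM2 libraries, against 333, 338 and 306 CPM in the shNC libraries, and the groups were far from overlapping. This was 61.4% of the shNC level (log2 fold change −0.70, SE 0.0361, adjusted p = 2.21e-17). SREBF2, which encodes SREBP-2, stood at 207, 205 and 212 CPM in shRRM2 and 216, 221 and 224 CPM in shNC. Its difference was small, −0.08 (SE 0.0341, adjusted p = 0.0455), and the call was lost when any of 5 single libraries was left out (shRRM2 replicate 1, 2 or 3, or shNC replicate 2 or 3, adjusted p between 0.0679 and 0.131). The call was also lost under other library scalings, other low-count filters and DESeq2. Within a library, SREBF1 over SREBF2 was 0.980, 0.962 and 0.940 in shRRM2 and 1.54, 1.53 and 1.36 in shNC. SREBF2 thus had the higher count in each shRRM2 library and SREBF1 in each shNC library. That crossing was in counts alone. Per kilobase of the principal transcript, mean SREBF1 stayed above SREBF2, at 47.9 against 39.7 CPM in shRRM2 and 77.9 against 42.0 CPM in shNC. On the log2 scale the ratio of SREBF1 to SREBF2 was lower by −0.62 (SE 0.0591). This ratio and the within-library ratios of paralogs further on were chosen after their values were seen. A two-sided exact permutation test of 3 against 3 libraries cannot give a p below 0.1, which is the value for each of the 4 ratios computed, before and after Benjamini-Hochberg adjustment. Exons of SREBF1 share 556 bases with RAI1 on the opposite strand. RAI1 had a log2 fold change of −0.11.

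INSIG1, which retains SCAP in the endoplasmic reticulum and is itself a sterol-responsive SREBP target, stood at 44.3, 49.1 and 47.1 CPM in shRRM2 and 43.0, 40.2 and 44.1 CPM in shNC. Its lowest shRRM2 library lay just above its highest shNC library. It passed narrowly (log2 fold change 0.15, SE 0.0624, adjusted p = 0.0492), and did not pass without shRRM2 replicate 2 or 3 or without shNC replicate 1 or 2 (adjusted p between 0.0755 and 0.240), nor with the replicate number as a block (adjusted p = 0.057). STARD4, a soluble carrier that moves sterol between membranes, had overlapping groups at 55.1, 54.0 and 56.1 CPM in shRRM2 and 55.3, 49.4 and 52.7 CPM in shNC (log2 fold change 0.07, 95% interval −0.04 to 0.19). LPIN1, a phosphatidate phosphatase that also acts as a nuclear coregulator, had overlapping groups at 36.4, 34.9 and 34.8 CPM in shRRM2 and 35.2, 33.0 and 34.6 CPM in shNC (log2 fold change 0.05, interval −0.09 to 0.18).

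Along the fatty acid route, the enzyme that supplies acetyl-CoA moved least of those that passed. ACLY, ATP citrate lyase, stood at 627, 640.4 and 611 CPM in shRRM2, against 696, 678 and 695 CPM in shNC, a fall of the level to 90.8% (log2 fold change −0.14, SE 0.0288, adjusted p = 0.000113). ACACA, acetyl-CoA carboxylase 1, which makes the malonyl-CoA used for chain building, stood at 182, 181 and 178 CPM in shRRM2, against 259, 252 and 264 CPM in shNC (log2 fold change −0.52, SE 0.0342, adjusted p = 1.43e-14). FASN, the fatty acid synthase that builds palmitate, stood at 919.8, 870.2 and 907 CPM in shRRM2, against 1333, 1351 and 1268 CPM in shNC (log2 fold change −0.55, SE 0.0291, adjusted p = 4.88e-17). ACACA and FASN were thus at 69.8% and 68.3% of their shNC levels, with a wide gap between the groups in both.

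SCD, the desaturase that turns saturated into monounsaturated fatty acids, stood at 709, 704 and 717 CPM in shRRM2, against 1176, 1155 and 1155 CPM in shNC. It had the smallest adjusted p of the 30 genes and stood at 61.1% of the shNC level (log2 fold change −0.71, SE 0.0270, adjusted p = 6.56e-21). FADS1, the delta-5 desaturase of polyunsaturated fatty acids, stood at 351, 348 and 349 CPM in shRRM2, against 494, 472 and 484 CPM in shNC (log2 fold change −0.47, SE 0.0303, adjusted p = 8.85e-15). FADS2, the delta-6 desaturase that acts before it, had overlapping groups at 36.4, 37.9 and 41.0 CPM in shRRM2 and 40.8, 36.8 and 37.7 CPM in shNC. Its log2 fold change was 0.00 with a 95% interval of −0.14 to 0.14. FADS1 and FADS2 lie head to head and share 490 exon bases on opposite strands in GENCODE release 29.

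ELOVL6, the elongase that lengthens palmitate, was the scarcest of the 30 genes. It had 34, 24 and 20 counts in shRRM2 and 44, 58 and 40 counts in shNC, in libraries of unequal depth. In CPM it stood at 1.92, 1.21 and 1.10 in shRRM2 and 2.51, 2.52 and 2.43 in shNC, and the highest shRRM2 library lay below the lowest shNC library. The log2 fold change of −0.82 carried a 95% interval of −1.39 to −0.25 (SE 0.279, adjusted p = 0.0135). ELOVL6 did not pass without shRRM2 replicate 2 (log2 fold change −0.71, adjusted p = 0.0537), without shRRM2 replicate 3 (−0.67, adjusted p = 0.0677) or with DESeq2 (adjusted p = 0.0602).

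**Figure D2:**
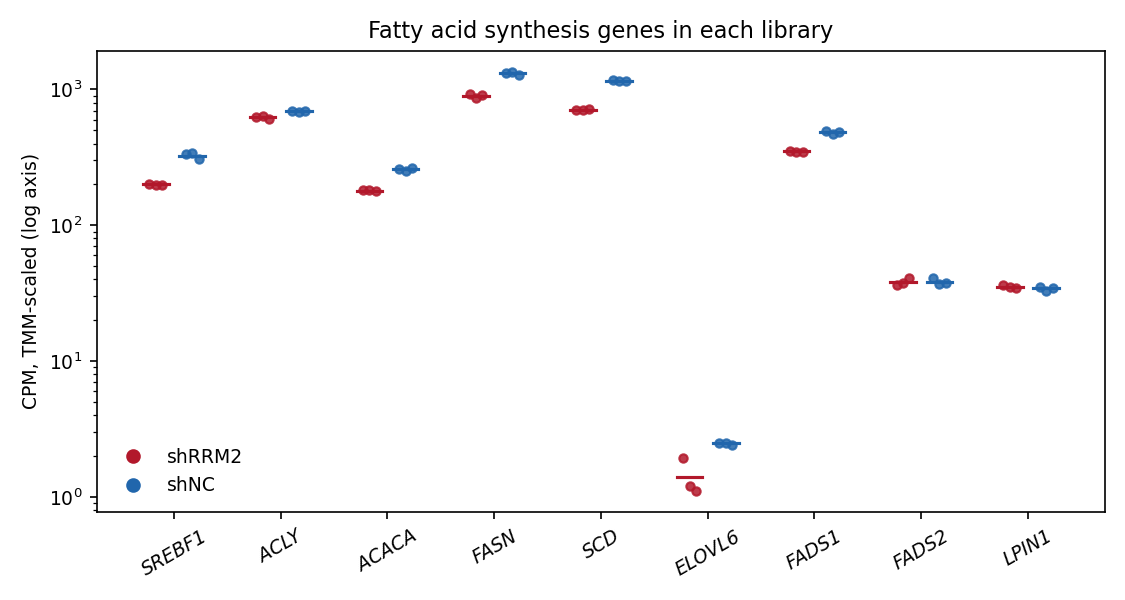
CPM of the 9 fatty acid genes in each library on a log axis, shRRM2 to the left of shNC; points are libraries and short lines are group means. ACLY, ACACA, FASN, SCD, FADS1, SREBF1 and ELOVL6 have every shRRM2 library below every shNC library, and FADS2 and LPIN1 overlap.

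Ratios between paralogs within a library do not depend on scaling between libraries. The ratio of FADS1 to FADS2 was 9.64, 9.20 and 8.51 in shRRM2 and 12.1, 12.8 and 12.8 in shNC. ACACA over ACACB, whose product is the carboxylase of the mitochondrial surface, was 5.20, 5.25 and 5.12 in shRRM2 and 9.12, 8.32 and 9.49 in shNC. SCD over SCD5, the other human stearoyl-CoA desaturase, was 18.2, 21.2 and 23.2 in shRRM2 and 37.8, 36.2 and 36.9 in shNC. On the log2 scale the ratios were lower by −0.47 (SE 0.0592), −0.79 (SE 0.0571) and −0.83 (SE 0.103) for FADS1, ACACA and SCD in that order. Each shRRM2 ratio lay below each shNC ratio. A ratio shows unequal change and does not say that ACACB, SCD5 or FADS2 was constant. In the edgeR test ACACB itself rose (log2 fold change 0.27, adjusted p = 0.00183). SCD5 (0.12, adjusted p = 0.176) and FADS2 (0.00, adjusted p = 0.991) did not pass.

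**Figure D3:**
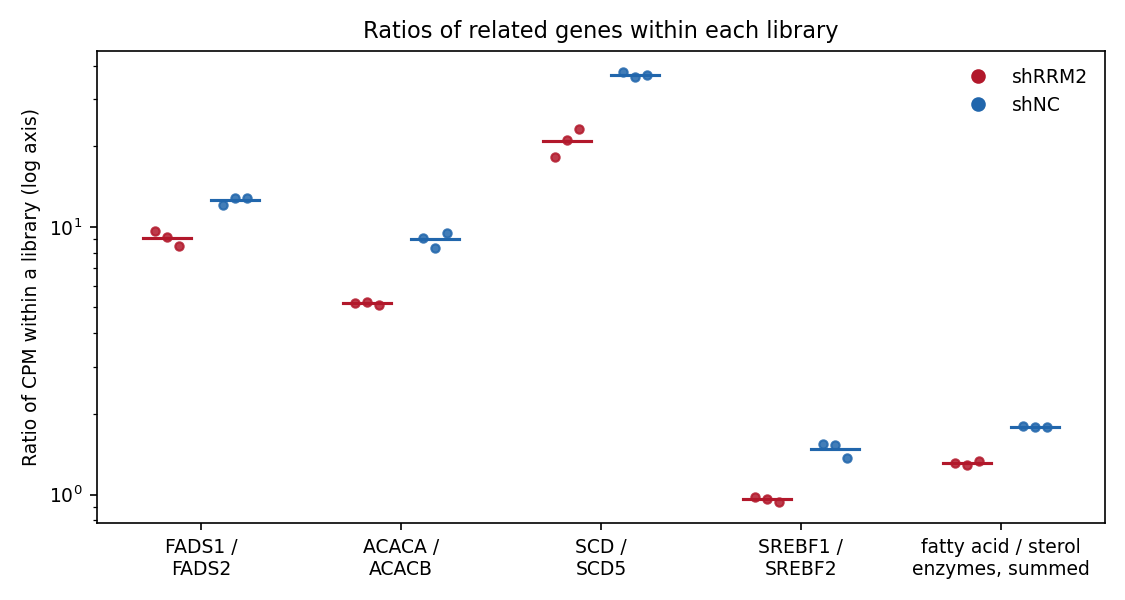
Ratio of CPM within each library on a log axis for FADS1 over FADS2, ACACA over ACACB, SCD over SCD5, SREBF1 over SREBF2 and the summed fatty acid over the summed sterol enzymes, with shRRM2 left of shNC; points are libraries and short lines are group means. All 3 shRRM2 libraries lie below all 3 shNC libraries in each ratio.

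In the mevalonate route, 4 of 7 enzymes rose, 2 fell and 1 did not pass, 85.7% called against 52.1% of all tested genes. ACAT2, the cytosolic thiolase of the first step, stood at 145, 135 and 136 CPM in shRRM2, against 113, 107 and 106 CPM in shNC (log2 fold change 0.35, SE 0.0420, adjusted p = 1.25e-08). HMGCS1, the HMG-CoA synthase of the next step, stood at 249, 246 and 243 CPM in shRRM2, against 292, 292 and 298 CPM in shNC (log2 fold change −0.26, SE 0.0322, adjusted p = 3.26e-08). The enzymes of successive steps therefore moved in opposite directions, each without overlap between the groups. MVK, mevalonate kinase, whose promoter is printed above, stood at 45.0, 44.8 and 45.3 CPM in shRRM2, against 30.3, 31.1 and 29.3 CPM in shNC (log2 fold change 0.57, SE 0.0648, adjusted p = 4.17e-09). PMVK, the kinase after it, had overlapping groups at 21.3, 27.7 and 22.7 CPM in shRRM2 and 25.5, 30.8 and 24.0 CPM in shNC (log2 fold change −0.17, adjusted p = 0.170), and it passed without shRRM2 replicate 2 (−0.29, adjusted p = 0.0119).

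MVD, the decarboxylase that yields isopentenyl diphosphate, stood at 58.7, 69.4 and 57.1 CPM in shRRM2 and 56.1, 56.0 and 53.2 CPM in shNC (log2 fold change 0.16, adjusted p = 0.0259). The second shRRM2 library was the high one, and without it the log2 fold change was 0.08 (adjusted p = 0.319); the call was also lost without shNC replicate 1, 2 or 3 (adjusted p between 0.0501 and 0.111). IDI1, the isomerase of isopentenyl diphosphate, stood at 91.9, 90.6 and 92.5 CPM in shRRM2, against 107, 103 and 108 CPM in shNC (log2 fold change −0.21, adjusted p = 0.000115). FDPS, farnesyl diphosphate synthase, stood at 157, 157 and 158 CPM in shRRM2 and 147, 147 and 146 CPM in shNC, a small difference with little spread (log2 fold change 0.10, SE 0.0363, adjusted p = 0.0190). FDPS did not pass without shNC replicate 1 (adjusted p = 0.0542) or 3 (adjusted p = 0.0514).

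Several of these genes share exon bases with a neighbor on the opposite strand, and whether reads were counted by strand is not given in the sources used here. The directional kit marks the strand, but the counting setting decides whether that is used. ACAT2 shares 1141 bases with SOD2, mitochondrial superoxide dismutase, which had a log2 fold change of 0.11. It shares 397 bases with TCP1, a chaperonin subunit, at −0.46. MVK shares 306 bases with MMAB, an enzyme of cobalamin metabolism, which had −0.28. ACAT2 and TCP1, and MVK and MMAB, thus moved in opposite directions, whereas ACAT2 and SOD2 both rose. FDPS shares 693 bases with RUSC1-AS1, which had −0.36. What shared reads gave to any of these values was not tested.

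From squalene onwards, 3 of 11 enzymes rose, 5 fell and 3 did not pass, 72.7% called against 52.1% of all tested genes. FDFT1, squalene synthase, which commits farnesyl diphosphate to sterol, stood at 351, 357 and 350.3 CPM in shRRM2, against 404, 378 and 383 CPM in shNC (log2 fold change −0.14, SE 0.0319, adjusted p = 0.000392). SQLE, squalene epoxidase, a rate-limiting step, stood at 111, 105 and 108 CPM in shRRM2, against 127, 134 and 134 CPM in shNC (log2 fold change −0.28, SE 0.0411, adjusted p = 5.06e-07). Both fell without overlap between the groups. LSS, which folds squalene epoxide into lanosterol, had overlapping groups at 165, 173 and 166 CPM in shRRM2 and 163, 169 and 158 CPM in shNC (log2 fold change 0.04, 95% interval −0.04 to 0.12). CYP51A1, the lanosterol demethylase, stood at 158, 145 and 145 CPM in shRRM2 and 162, 157 and 162 CPM in shNC, so that the first shRRM2 library reached into the shNC range. Its log2 fold change was −0.10 (adjusted p = 0.0322), and it did not pass without shRRM2 replicate 2 or 3 or shNC replicate 1 or 3 (adjusted p between 0.0694 and 0.182). Another GENCODE gene model on the same strand covers 79.3% of the CYP51A1 exon bases, and how its reads were assigned is not given in the sources used here.

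TM7SF2, a sterol reductase of the endoplasmic reticulum that acts after demethylation, had the largest rise of the 30 genes from a low level. It stood at 12.3, 11.7 and 11.4 CPM in shRRM2, against 6.23, 6.07 and 5.47 CPM in shNC, 198% of the shNC level (log2 fold change 0.99, SE 0.130, adjusted p = 9.03e-08). MSMO1, the methylsterol oxidase, stood at 69.5, 64.8 and 63.7 CPM in shRRM2 and 61.1, 62.0 and 61.5 CPM in shNC. Its groups did not overlap, but it did not pass (log2 fold change 0.10, adjusted p = 0.108), except with library sizes left unscaled (0.14, adjusted p = 0.0275). NSDHL, the sterol dehydrogenase that works with it in removing methyl groups, stood at 72.8, 74.6 and 67.8 CPM in shRRM2, against 60.3, 62.6 and 63.3 CPM in shNC (log2 fold change 0.21, SE 0.0521, adjusted p = 0.00103). HSD17B7, the keto reductase of the same complex, went the other way, with 30.9, 32.2 and 29.7 CPM in shRRM2, against 41.2, 39.9 and 41.2 CPM in shNC (log2 fold change −0.40, SE 0.0667, adjusted p = 6.13e-06). It was the largest fall among the sterol genes. The pseudogene copy HSD17B7P2 held 449 counts over the 6 libraries, 11.1% of the HSD17B7 total, and reads shared between them could have been assigned to either.

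Differences were small at the last steps. EBP, the sterol isomerase, stood at 147, 154 and 142 CPM in shRRM2 and 134, 141 and 132 CPM in shNC (log2 fold change 0.12, adjusted p = 0.00998), and it did not pass without shRRM2 replicate 2 (adjusted p = 0.0571) or shNC replicate 3 (adjusted p = 0.0566). SC5D, the sterol desaturase, stood at 40.6, 37.3 and 39.1 CPM in shRRM2 and 42.1, 42.9 and 44.9 CPM in shNC (log2 fold change −0.15, adjusted p = 0.0456), and it did not pass without shRRM2 replicate 2 or 3 or shNC replicate 2 or 3 (adjusted p between 0.0724 and 0.183). Nor did SC5D pass under other library scalings, other low-count filters or DESeq2. DHCR7, the reductase that finishes cholesterol, had overlapping groups at 262, 261 and 252 CPM in shRRM2 and 266, 258 and 259.8 CPM in shNC. Its log2 fold change was −0.02 with a 95% interval of −0.08 to 0.05.

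**Figure D4:**
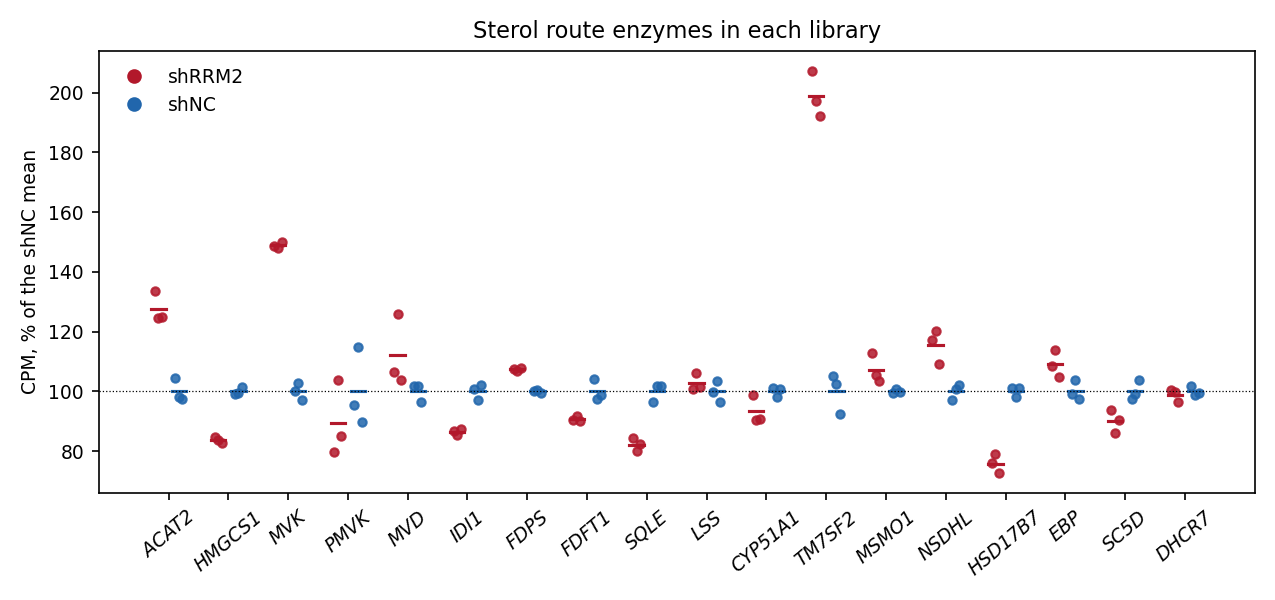
CPM of the 18 sterol route enzymes in each library as a percent of the gene's shNC mean, in pathway order, shRRM2 to the left of shNC; points are libraries, short lines are group means and the dotted line marks 100%. TM7SF2 and MVK lie highest in shRRM2, at 198% and 149%, and HSD17B7 lowest, at 75.9%, while DHCR7, LSS, PMVK and CYP51A1 overlap.

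Per kilobase of the principal transcript, the 30 genes spanned a wide range of levels. ACLY had the highest level in shRRM2, at 144 CPM per kilobase (159 in shNC), and SCD the highest in shNC, at 217 CPM per kilobase (132 in shRRM2). FASN stood at 105 CPM per kilobase in shRRM2 and 154 in shNC. The most abundant sterol enzyme was FDFT1, at 132.5 CPM per kilobase in shRRM2 and 146 in shNC, followed by FDPS at 106 in shRRM2 and 99.2 in shNC. The least abundant sterol gene was TM7SF2, at 6.84 CPM per kilobase in shRRM2 and 3.44 in shNC, and the least abundant fatty acid gene was ELOVL6, at 0.219 in shRRM2 and 0.385 in shNC. SCD thus stood above ACLY in shNC and below it in shRRM2. These levels assume the principal transcript of each gene, and which transcripts were made was not measured.

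Genes around the routes were counted from 7 lists with 72 genes, all tested. Of these, 29 rose, 26 fell and 17 did not pass, 76.4% against the 52.1% of all tested genes. In the machinery that processes SREBPs, 3 of 9 genes rose and 4 fell, 77.8% called in all. SPRING1, a Golgi protein needed for SREBP processing, fell to 33.6 ± 0.758 CPM in shRRM2, against 62.9 ± 3.76 CPM in shNC (SD, n = 3 each; log2 fold change −0.91, adjusted p = 2.01e-14). MBTPS2, the site-2 protease that releases the active fragment, fell to 31.4 ± 0.852 CPM in shRRM2, against 53.7 ± 2.99 CPM in shNC (log2 fold change −0.77, adjusted p = 3.84e-12). ERLIN1, an endoplasmic reticulum scaffold that restrains SREBPs, rose (0.40, adjusted p = 4.73e-08), and UBE2G2, a ubiquitin-conjugating enzyme of the degradation route there, fell (−0.35, adjusted p = 5.62e-08). SPRING1 and MBTPS2 fell more than SREBF1 did on the log2 scale; that difference between genes was not tested.

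The branches that use farnesyl and isopentenyl diphosphate for products other than sterol had 0 of 10 genes higher, 9 lower and 1 not called, with a median log2 fold change of −0.43. RABGGTB, the beta subunit of the transferase that prenylates Rab proteins, fell to 70.5 ± 3.43 CPM in shRRM2, against 129 ± 4.76 CPM in shNC (SD, n = 3 each; log2 fold change −0.87, adjusted p = 5.88e-17). PGGT1B, the beta subunit of a geranylgeranyl transferase, fell (−0.51, adjusted p = 5.37e-06). NUS1, a subunit of the dolichol-making transferase (−0.38, adjusted p = 1.24e-06), and PDSS1, which makes the tail of coenzyme Q (−0.53, adjusted p = 5.17e-06), also fell. The groups did not overlap for the 9 that fell. Over all tested genes, 26.1% were called lower and 57.8% had groups without overlap.

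Of 10 genes of sterol traffic and esterification, 7 rose, 2 fell and 1 did not pass, with a median log2 fold change of 0.29. That was 90% called, against 52.1% of all tested genes. CAV1, the caveolar coat protein that binds cholesterol, rose to 81.2 ± 5.68 CPM in shRRM2, against 33.6 ± 2.83 CPM in shNC (SD, n = 3 each; log2 fold change 1.27, adjusted p = 1.24e-17). NPC2, which hands cholesterol out of lysosomes, rose (0.61, adjusted p = 3.45e-15), as did OSBP, an oxysterol-binding exchanger (0.44, adjusted p = 8.21e-11). SCARB1, the HDL receptor, fell (−0.39, adjusted p = 8.03e-12), and so did SOAT1, the enzyme that esterifies cholesterol (−0.26, adjusted p = 6.55e-07), which was named after its values were seen. Among 7 genes of the LXR sterol sensor and efflux, 1 rose, 3 fell and 3 did not pass. The 57.1% called here was near the 52.1% of all tested genes. MYLIP, an LXR-induced ubiquitin ligase, fell (−0.70, adjusted p = 3.95e-07), as did the exporter ABCG1 (−0.89, adjusted p = 1.73e-05) and LPCAT3, a phospholipid acyltransferase (−0.36, adjusted p = 0.000138). ABCA1, the other cholesterol exporter, rose (0.43, adjusted p = 0.0195), but it did not pass without shRRM2 replicate 2 (0.34, adjusted p = 0.0976) or shNC replicate 3 (0.34, adjusted p = 0.0946).

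Of 16 other genes of fatty acid supply, activation and elongation, 7 rose, 6 fell and 3 did not pass. That was 81.25% called, against 52.1% of all tested genes. ACSL5, which activates long-chain fatty acids, rose to 38.9 ± 4.06 CPM in shRRM2, against 9.99 ± 0.556 CPM in shNC (SD, n = 3 each; log2 fold change 1.96, adjusted p = 2.10e-18). ACSL4, which prefers arachidonate, rose (0.38, adjusted p = 3.53e-10), and so did ELOVL7, an elongase, at 5.76 ± 0.826 CPM in shRRM2 and 2.50 ± 0.387 CPM in shNC (1.19, adjusted p = 3.43e-06). MID1IP1, which promotes acetyl-CoA carboxylase polymers, fell to 69.2 ± 3.40 CPM in shRRM2, against 121 ± 4.53 CPM in shNC (log2 fold change −0.81, adjusted p = 5.91e-16). MID1IP1 and ACACA thus both fell.

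**Figure D5:**
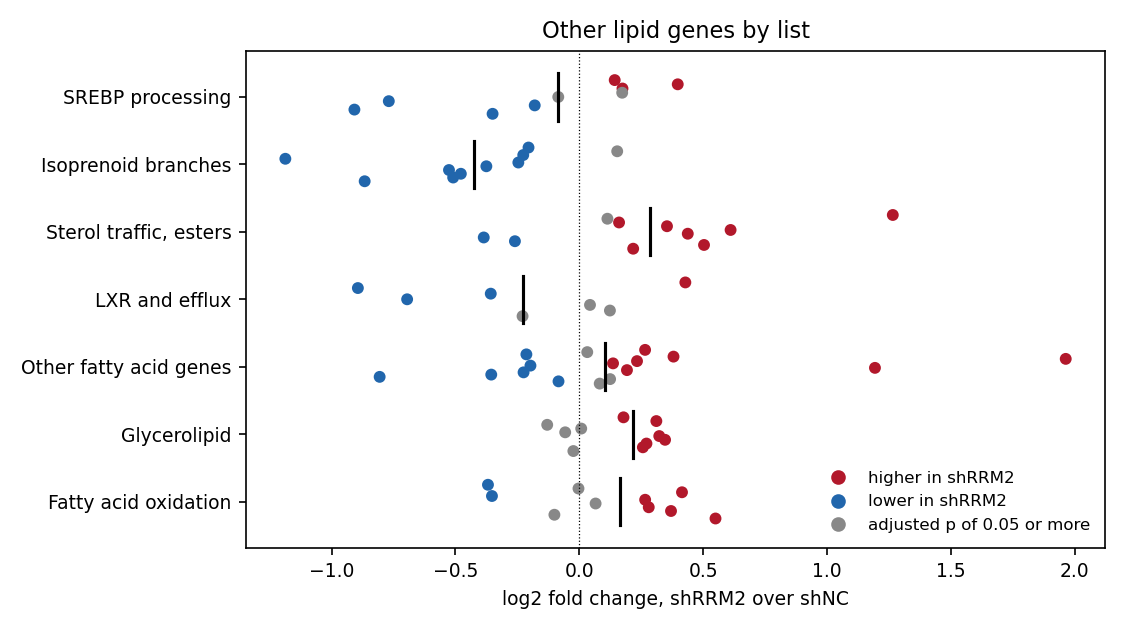
Log2 fold change of shRRM2 over shNC for each gene of the 7 lists around the synthesis routes, 1 point per gene; red is higher, blue lower and grey an adjusted p of 0.05 or more, and the black bar is the list's median. In the isoprenoid branches 9 of 10 genes fell and in sterol traffic and esters 7 of 10 rose, with ACSL5 the highest at 1.96. Over all tested genes, 26.1% were called lower and 26.0% higher.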

How the data were processed

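Read counts per gene in 6 libraries of PANC-1 cells were used as deposited: the authors gave 1 table of whole-number counts by NCBI Gene ID. The build was hg38 and the tools were fastp 0.23.4 and featureCounts, per the submitters' processing notes. What aligner and annotation release made the counts, and how strand and multi-mapping reads were set, is not given in the sources used here. The table's columns carry the prefix si where the labels have sh, and were matched by gene name and number. Symbols were matched for 40120 of 42902 IDs; the rest held 1.25% of the counts and were kept.

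Genes passing filterByExpr (15866) entered edgeR 4.0.16 under R 4.3.3 (TMM, robust quasi-likelihood, group alone, two-sided), with Benjamini-Hochberg adjustment over all tested genes and a threshold of 0.05. Fold changes are log2, shRRM2 over shNC; CPM uses the TMM-scaled library sizes; n = 3 each. Exon overlaps and principal transcripts are from GENCODE release 29. No 2 libraries of a group agreed within sampling noise. The tests were checked on simulated data. The members and lists were chosen with earlier results of these data known. Named are all 30 genes, RRM2 and, per related list, up to 4 genes with the smallest adjusted p among those that passed; overlapping neighbors, markers and paralogs in ratios were added. A few items taken by this rule are not reported here; counts over lists include them. Alternatives were RLE factors, library size alone, other filters, DESeq2 1.42.0, limma-voom (limma 3.58.1), a replicate block, each library left out, and a threshold of 0.01. Intervals cover the spread between these libraries only.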

Additional observations from a re-analysis of the deposited data

How the results depend on the processing

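No gene that passed changed direction under any of its alternatives, 14 for the 30 genes. Of those that did not pass, DHCR7 and FADS2 changed sign near 0, with log2 fold changes between −0.03 and 0.02 for DHCR7 and between −0.04 and 0.04 for FADS2. Of the fatty acid genes, 6 fell in every one (ACLY, ACACA, FASN, SCD, FADS1 and SREBF1); the count of lower genes was 6 or 7 of 9, and of higher genes 0, throughout. Of the sterol genes, 4 rose in every alternative (ACAT2, MVK, TM7SF2 and NSDHL), and 5 fell in every one (HMGCS1, IDI1, FDFT1, SQLE and HSD17B7). Another 7 lost their call in at least 1 of the 14. These were SREBF2 (in 11), SC5D (10), INSIG1 (8), CYP51A1 (7), MVD (6), FDPS (3) and EBP (2). The count of lower sterol genes was 5 with library size alone, 5 with DESeq2 and 5 at a threshold of 0.01, and the count of higher ones was 5 at that threshold; a stricter threshold calls fewer genes, and for the others the cause was not tested. Leaving out 1 library at a time gave 5 to 8 higher and 5 to 7 lower sterol genes: 5 higher without shRRM2 replicate 2, shNC replicate 1 or shNC replicate 3, and 5 lower without shRRM2 replicate 3 or shNC replicate 3. Same-numbered libraries did not deviate together (correlations of −0.005, −0.002 and −0.019). With the replicate number as a block, 7 sterol genes were higher and 8 lower, and 0 fatty acid genes were higher and 7 lower. The scalings moved the median over all genes by at most 0.04 on the log2 scale. At these depths the genes near 1 CPM, such as ELOVL6, rest on few counts (20 to 58 a library), and differences near 0.10 on the log2 scale were at the edge of what 3 libraries a group could call. RNA levels say nothing here of enzyme activity or lipid content, and not every enzyme of the routes is among the 30. The alternatives for the named genes of the related lists were added after the data were examined; 13 higher and 14 lower ones passed in all of them, and ABCA1 did not.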

Other observations

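Lipid storage and fatty acid oxidation were measured alongside synthesis. Of 10 glycerolipid and lipid droplet genes, 6 were higher in shRRM2, 0 were lower and 4 did not pass, with a median log2 fold change of 0.22. The 60% called here was near the 52.1% of all tested genes, of which 26.0% were higher. PLIN3, a lipid droplet coat protein, stood at 367 ± 5.51 CPM in shRRM2 and 307 ± 8.08 CPM in shNC (SD, n = 3 each; log2 fold change 0.26, adjusted p = 2.67e-08 by edgeR). LPIN2 (0.32, adjusted p = 1.21e-06) and LPIN3 (0.35, adjusted p = 0.000346), the phosphatidate phosphatases related to LPIN1, rose, while LPIN1 itself had 0.05. AGPAT3, an acyltransferase of phospholipid synthesis, rose as well (0.31, adjusted p = 0.000223).

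Of 10 genes of fatty acid oxidation, 5 were higher, 2 were lower and 3 did not pass, with a median of 0.17. That was 70% called, against 52.1% of all tested genes. CPT1A, which commits long-chain fatty acids to mitochondria, fell to 187 ± 6.25 CPM in shRRM2, against 239 ± 3.47 CPM in shNC (log2 fold change −0.35, adjusted p = 2.43e-10), and ACADM, the medium-chain dehydrogenase, fell (−0.37, adjusted p = 1.91e-07). PDK4, a kinase that restrains pyruvate dehydrogenase, rose (0.37, adjusted p = 3.54e-08). CPT1A and ACADM thus fell where PDK4 rose.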
